A study of Mus musculus with 4 samples.

Results

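LXLOC_020842 and LXLOC_020844 are a pair of mouse ovary transcripts whose identifier numbers lie 2 apart. They were picked from the deposited tables because their levels were near FPKM 1 to 2 in day 3 ovaries and close to nothing after culture. They are 2 of 3362 features with an LXLOC identifier and 2 of the 50821 features in all. FPKM counts fragments per kilobase of a feature and relative to the size of its library. Since those values chose the pair, its change is described here with no test.

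The study profiled long non-coding RNA (lncRNA) in ovaries isolated from mice 3 days old (2 libraries) and in ovaries isolated at that age and then kept in vitro for 8 days (2 libraries). The labels call the first state before initiation and the second state after initiation of the follicle, and they state that initiation was assessed by histological staining. The sources used here do not give the strain, the genotype or the number of ovaries per library. The labels do not tie a library to an animal or a pool. The p-values thus reflect the spread among these libraries only, and that spread may be technical. Age and culture differ together between the groups and cannot be told apart.

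A primordial follicle is a resting oocyte enclosed by a single layer of flat somatic cells. Initiation, or activation, is the step at which the somatic cells become cuboidal, start to divide and the oocyte begins to grow, and only a small part of the pool takes this step at any time. LncRNAs are long transcripts without a long open reading frame. Some act on genes near their own locus, while for most no role is known, and the sources used here give no function for these 2 features.

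The names LXLOC and LTCONS resemble the XLOC and TCONS names that Cufflinks gives to assembled loci and transcripts, and Cufflinks is among the tools in the submitters' processing notes. Whether these identifiers were made that way, and whether close numbers mean close positions, is not given there. Genome position, strand, exons and overlap with other genes were not analysed here, and no sequence of either feature is printed. The tables pair no identifier with a gene symbol. None of 26 marker symbols of ovarian cell types (oocyte, granulosa, stroma, endothelium, blood) matched an identifier (0 matched), so the labelled tissue could not be checked against its markers.

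The estimated counts summed to between 18215834 and 26566784 per library. Each table listed from 35707 to 40042 features, of which 2587 to 2858 were LXLOC features. Cultured library 1 stood apart in scaling. Its TMM factor (trimmed mean of M-values, which sets the libraries to a common level for most features) was 1.45. The factor was 1.03 in the other cultured library, and at day 3 it was 0.794 and 0.842. Ratios that move by over 1.5 times without 1 of the libraries are also given without it.

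LXLOC_020842 is the longer feature, with a single transcript (LTCONS_00035991) of 5903 bases. In the day 3 libraries its FPKM was 0.88 (252 counts) and 0.78 (223 counts). In the cultured libraries its FPKM was 0.01 (2 counts) and 0.02 (5 counts). Both day 3 libraries lay above both cultured libraries, as the choice of the feature required. The day 3 values are slightly under the lower end of the range by which the pair was described. The mean was 0.83 ± 0.0707 at day 3 and 0.015 ± 0.00707 after culture (FPKM, SD, n = 2 each).

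LXLOC_020844 also has a single transcript (LTCONS_00035993), of 2272 bases. It had FPKM 1.73 and 1.77 at day 3, from 189 and 192 counts. After culture it had FPKM 0.01 in library 1, from 1 count, and was unlisted in library 2, which is taken as 0 counts. A count of 0 allows up to 3 counts there, equal to FPKM 0.0334. The mean was 1.75 ± 0.0283 at day 3 and 0.005 ± 0.00707 after culture (FPKM, SD, n = 2 each).

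**Figure D1:**
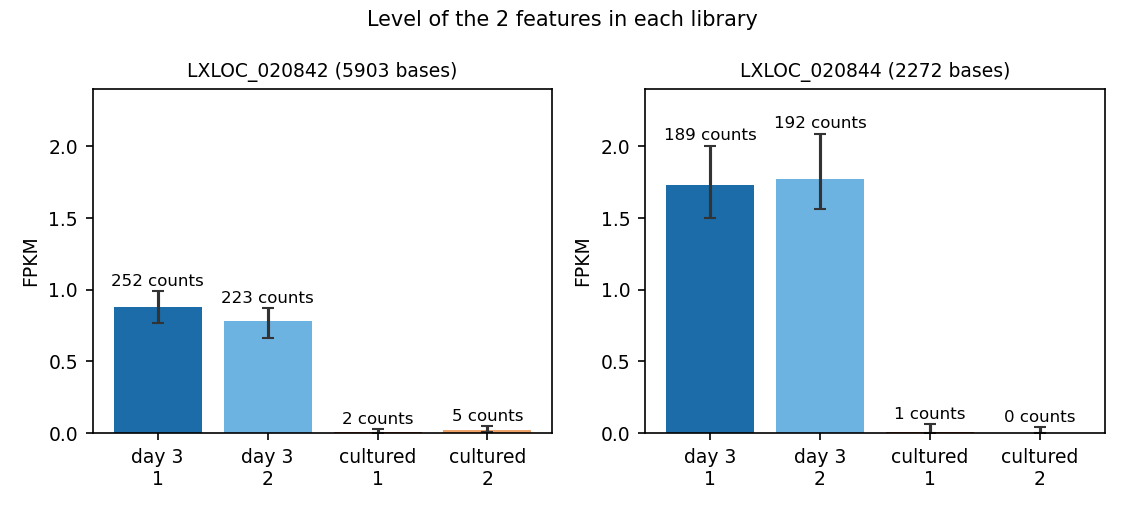
FPKM of LXLOC_020842 (left) and LXLOC_020844 (right) in each of the 4 libraries, with the estimated count above each bar. Error bars are 95% exact Poisson intervals of the count, set on the FPKM scale, and cover counting error only. The day 3 bars stand at 0.78 to 0.88 and at 1.73 to 1.77, and the cultured bars at 0.02 or less.

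The day 3 libraries gave close values for each feature. After TMM scaling, day 3 library 2 held 0.841 times the LXLOC_020842 counts of library 1 (95% exact interval 0.699 to 1.01). For LXLOC_020844 that ratio was 0.966 (0.786 to 1.19). Both intervals include 1, so a difference beyond counting error was not detected, though the interval for LXLOC_020842 reaches down to 0.699. The cultured libraries are too sparse for such a comparison. Their ratio, library 2 over library 1, was 4.04 for LXLOC_020842, with an interval from 0.661 to 42.4.

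The size of the difference is known only roughly, because the cultured libraries hold 7 counts of LXLOC_020842 and 1 of LXLOC_020844 in all. With TMM scaling, the summed counts of LXLOC_020842, 475 against 7, gave a day 3 level 77.1 times the cultured level (95% exact binomial interval 37.1 to 193). For LXLOC_020844, 381 against 1, the ratio was 433 (77.3 to 17150). These intervals overlap widely. Reads carried no stated molecular identifier and may not be independent molecules, so these intervals and floors cover counting error only. On the scale of the library totals that FPKM implies, the ratios were 59.0 (28.4 to 147) and 331 (59.1 to 13110). Without cultured library 2 they were 107 and 171 on that scale. Without cultured library 1 the ratio was 39.9 for LXLOC_020842, and for LXLOC_020844 at least 53.4 against a floor of 3 counts per library.

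With TMM scaling the ratios also moved with the cultured library used. For LXLOC_020842, leaving out cultured library 1 gave a ratio of 41.3 and leaving out cultured library 2 one of 167. For LXLOC_020844 it was 267 without cultured library 2. Without cultured library 1 there was no count after culture, and the feature was at least 55.2-fold higher at day 3 against a floor of 3 counts per library. Leaving out a day 3 library moved the ratios less, to between 70.6 and 83.9 for LXLOC_020842 and between 426 and 441 for LXLOC_020844. In bulk tissue, fewer cells that hold an RNA and less of it per cell cannot be told apart.

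Relative to other LXLOC features, the pair was of upper middle to high level at day 3 and at the bottom of the listed range after culture. These places follow from the values that chose the pair and are no separate result. LXLOC_020842 exceeded 75.5% and 69.4% of the LXLOC features listed in the day 3 libraries by FPKM. LXLOC_020844 exceeded 88.1% and 86.7% of them. Where listed after culture, LXLOC_020842 was above 0% and 2.28% of LXLOC features, and LXLOC_020844 above 0%. FPKM 0.01 is the smallest value in any of the tables.

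Among the 1290 LXLOC features that reached FPKM 0.5 in 2 or more libraries and were tested, the fitted log2 fold change (cultured over day 3, edgeR) was -6.15 for LXLOC_020842 and -8.42 for LXLOC_020844. These fits are given without a test. LXLOC features with a more negative value numbered 9 and 3, and among all 8557 features tested the numbers were 16 and 5. The 9 and the 16 include LXLOC_020844. A low place was to be had from the choice of the pair and is no separate result. The median was -0.54 for the LXLOC features tested and 0.08 for all. With the library totals behind FPKM the values of the pair were -5.83 and -8.07, and the median of all features was 0.45.

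**Figure D2:**
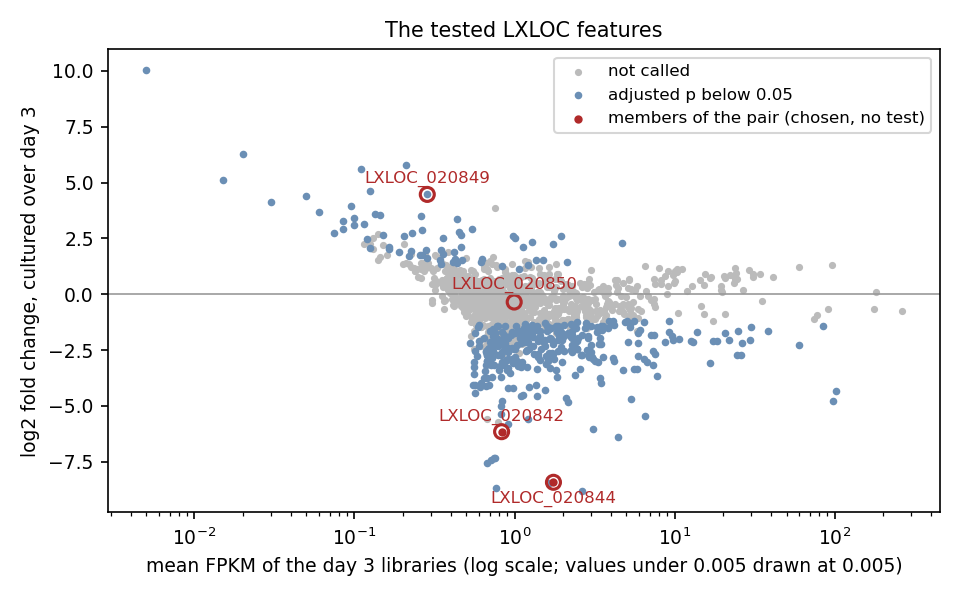
Each point is 1 of the 1290 LXLOC features tested, with its mean FPKM over the day 3 libraries (log scale) against its log2 fold change after culture (edgeR with TMM scaling). LXLOC_020842 (-6.15) and LXLOC_020844 (-8.42) lie near the lower edge at moderate day 3 levels, LXLOC_020849 lies at 4.47 and LXLOC_020850 at -0.35.

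Few LXLOC features of like day 3 level were as low in FPKM after culture, which depends on length. The pair was chosen for its low cultured values, so its place among these few is no separate result. The bounds used here were set after the values were seen, and 0.02 is the highest cultured FPKM of the pair. In cultured library 1, 1 count equals FPKM 0.00361 at 5903 bases and 0.011 at 2272 bases, so short features can miss the bound by 1 count. LXLOC_072128 (506 bases) had 0 and 1 counts after culture, and its FPKM of 0.05 in cultured library 2 left it out. Of 635 LXLOC features with FPKM from 0.5 to 2 in both day 3 libraries, 10 had FPKM of at most 0.02 in both cultured libraries, the pair included. The median over the 635 of the mean cultured FPKM was 0.595. Of the 10, 7 were unlisted in both cultured libraries, and these had 4 to 54 counts in a day 3 library, fewer than either member of the pair. The remaining feature, LXLOC_006354 (4482 bases), had 175 and 147 counts at day 3 and 1 and 1 after culture.

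Both features are single transcripts, as are 79.4% of LXLOC features. Both were counted in whole numbers in every library where they were listed, while between 49.8% and 52.1% of the LXLOC counts per library are whole as printed, to 2 decimals. Both are long for their class, whose median length is 1182 bases. LXLOC_020842 is longer than 93.5% and LXLOC_020844 longer than 73.2% of LXLOC features.

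The ratio of the 2 features to each other was similar in the 2 day 3 libraries. LXLOC_020842 held 57.1% of their joint counts in library 1 (95% exact interval 52.4 to 61.8) and 53.7% in library 2 (48.8 to 58.6). Per kilobase, LXLOC_020844 was the more abundant feature, with 83.2 counts per kilobase against 42.7 in library 1 and 84.5 against 37.8 in library 2. That is 1.95 and 2.24 times the density of LXLOC_020842. After culture LXLOC_020842 held 7 of the 8 joint counts, 87.5% (47.4 to 99.7), an interval that includes both day 3 shares. A change in their ratio was not detectable at this depth.

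Features with nearby numbers lay in both directions. The identifiers from LXLOC_020835 to LXLOC_020850 include 14 numbers besides the pair, of which 12 were listed in at least 1 library and 5 in all 4. LXLOC_020835 and LXLOC_020846 were listed in none. All 12 are single transcripts of 291 to 3348 bases, and in all of them, as in the pair, the LTCONS number exceeds the LXLOC number by the same amount. In 5 of the 12 (LXLOC_020837, LXLOC_020840, LXLOC_020841, LXLOC_020843 and LXLOC_020845) both day 3 libraries lay above both cultured libraries in FPKM, against 33.4% of all LXLOC features and 12.4% of all features listed. Every listed feature from LXLOC_020840 to LXLOC_020845 was of this kind, the pair by its choice. The ends of this run were set after the values were seen. LXLOC_020840, LXLOC_020841 and LXLOC_020845 had at most 5 counts in a library, so no shared fall is inferred from the run. In 3 (LXLOC_020836, LXLOC_020847 and LXLOC_020849) both cultured libraries lay above, against 17.7% of LXLOC features and 23.1% of all, and in 4 the groups overlapped. Most of these features held few counts.

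Only 2 of the 12 reached FPKM 0.5 in 2 libraries and were tested, and of these 1 rose and 1 did not pass the test. LXLOC_020849, which rose, reached FPKM 0.5 only in the cultured libraries, so the filter admitted it through the group where it was high. Over all features tested 14.4% were called, 5.87% as higher and 8.5% as lower. Of the LXLOC features alone 29.7% were called, 5.04% as higher and 24.7% as lower.

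LXLOC_020849, of 774 bases, changed opposite to the pair. It had FPKM 0.34 and 0.23 at day 3, from 12 and 8 counts, and 5.38 and 9.62 after culture, from 171 and 285 counts. Both cultured libraries lay above both day 3 libraries. Its log2 fold change was 4.47 (SE 0.576, edgeR quasi-likelihood test, Benjamini-Hochberg adjusted p = 0.000222), and 4.71 with the library totals behind FPKM. That test is not independent of the filter, which the feature passed only by its cultured values. With no filter the log2 fold change was 4.46 (edgeR adjusted p = 2.89e-14). As a ratio of summed counts LXLOC_020849 was 20.1 times higher after culture (95% exact interval 12.8 to 33.2). That ratio was 12.2 without cultured library 2 and 32.8 without cultured library 1, and the test was passed in both cases (edgeR adjusted p = 0.00222 and 0.000348). Over all 13 alternatives and the 4 added after the data were seen, the adjusted p ran from 1.69e-21 (edgeR) to 0.00707 (limma).

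LXLOC_020850, of 440 bases, was at a level near that of the pair at day 3 and was still present after culture. Its FPKM was 1.34 and 0.65 at day 3 and 1 and 0.95 after culture, from 25, 12, 17 and 15 counts, so the groups overlapped. The log2 fold change was -0.35 (SE 0.637, edgeR adjusted p = 0.761) and was 0.32 without day 3 library 1. The ratio of summed counts, cultured over day 3, was 0.761 with an interval from 0.459 to 1.26, and 1.20 without day 3 library 1.

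LXLOC_020843, whose number lies between those of the pair, was much less abundant, with 3348 bases and FPKM 0.10 and 0.09 at day 3 from 17 and 14 counts. After culture it had FPKM 0.02 and 0.01, from 3 and 1 counts. It was lower after culture in both libraries, as the pair was, but too low to be tested beside it. The summed counts, 31 against 4, gave a day 3 level 8.81 times the cultured level (95% exact interval 3.11 to 34.3), or 6.74 with the library totals behind FPKM. Leaving out cultured library 1 gave 13.5 and 13.0 on these scales, and leaving out cultured library 2 gave 7.25 and 4.64. With all 50821 features tested and no filter on low values, LXLOC_020843 passed the test as lower (log2 fold change -3.14, edgeR adjusted p = 0.0247). It did not pass when any 1 of the 4 libraries was left out, with adjusted p from 0.0629 to 0.324 (edgeR).

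The other numbered neighbours were sparse. LXLOC_020847, of 655 bases, had 0 and 1 counts at day 3 and 24 and 2 after culture, and most of its counts came from cultured library 1. The summed counts, 26 against 1, gave a cultured level 22.9 times the day 3 level (95% exact interval 3.76 to 938). Leaving out cultured library 1 gave 4.60 and leaving out day 3 library 1 gave 11.7, and day 3 library 1 alone holds no count to set it against. Without a filter it passed the test as higher (edgeR adjusted p = 0.0426). Without cultured library 1 it did not (edgeR adjusted p = 0.831), nor without day 3 library 1 (0.498) or day 3 library 2 (0.128). Without cultured library 2, which leaves cultured library 1 alone, it passed (0.00910). With no filter, 3 of the 12 listed neighbours passed in all (LXLOC_020843 lower, LXLOC_020847 and LXLOC_020849 higher), against 5% of all features, 2.23% as higher and 2.77% as lower. The share among LXLOC features alone was not computed without the filter. With the filter it was 29.7%, against 14.4% of all features, so the 5% may be too low a comparison for these neighbours.

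LXLOC_020837 had 21 and 15 counts at day 3 and 11 and 8 after culture, and LXLOC_020848 had 6 and 16 against 18 and 4, and neither passed (edgeR with no filter, adjusted p = 0.573 and 0.866). The day 3 level of LXLOC_020837 was 2.15 times the cultured level by summed counts (95% exact interval 1.20 to 3.97), or 1.65 (0.92 to 3.04) with the library totals behind FPKM, where the interval includes 1. For LXLOC_020848 the ratio was 1.14 (0.60 to 2.15). It was 2.39 without cultured library 1, 1.61 without day 3 library 1 and 0.636 without day 3 library 2. LXLOC_020836, LXLOC_020838, LXLOC_020839, LXLOC_020840, LXLOC_020841 and LXLOC_020845 had at most 6 counts in any library. LXLOC_020840 and LXLOC_020841 were listed only at day 3, with 6 and 5 counts summed over the 2 libraries. The lower bounds of their day 3 over cultured ratios were 1.34 and 1.04 with TMM scaling and 1.02 and 0.797 with the library totals, for counting error only. Between LXLOC_020835 and LXLOC_020841 no feature had over 21 counts in a library.

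**Figure D3:**
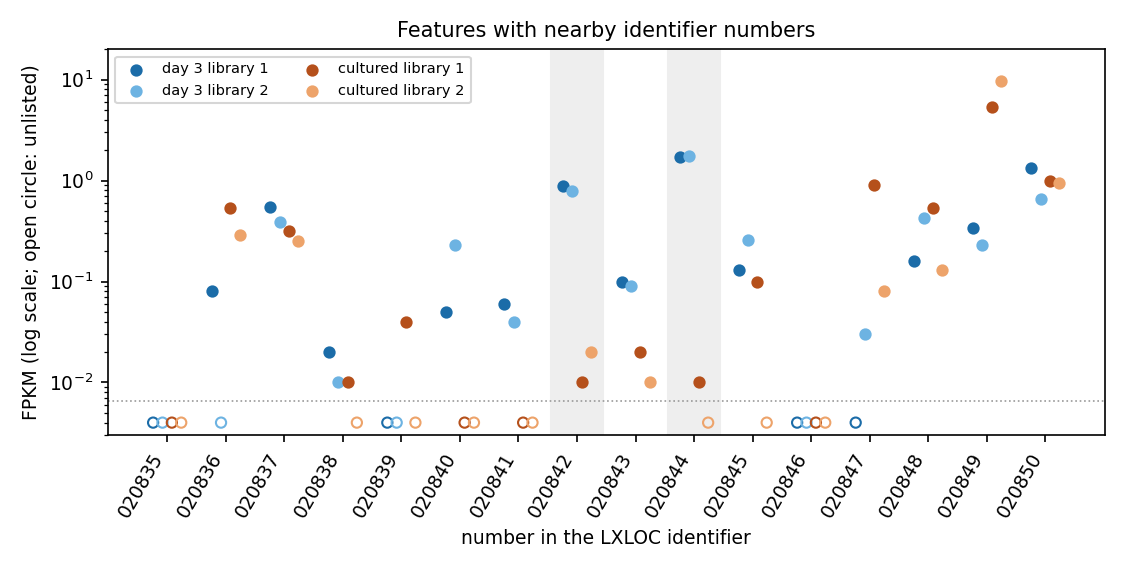
FPKM (log scale) of every feature numbered LXLOC_020835 to LXLOC_020850 in the 4 libraries, with the pair shaded and unlisted features drawn as open circles under the dotted line. Both day 3 libraries lie above both cultured libraries in the pair and in 5 neighbours (LXLOC_020837, LXLOC_020840, LXLOC_020841, LXLOC_020843, LXLOC_020845), and both cultured libraries lie above day 3 in LXLOC_020836, LXLOC_020847 and LXLOC_020849.

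**Figure D4:**
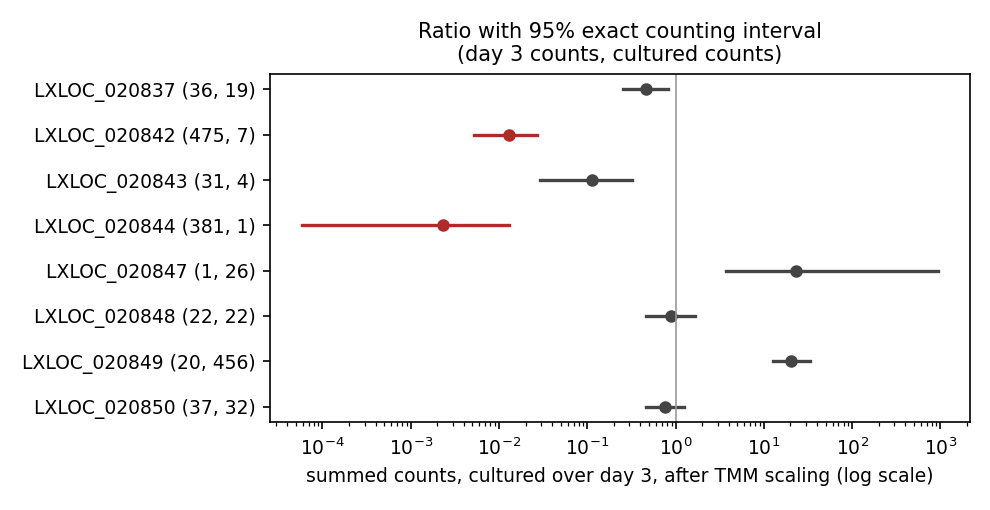
Summed counts of the cultured libraries over those of the day 3 libraries after TMM scaling (log scale), with 95% exact binomial intervals, for the features of the numbered window with at least 20 counts in all. The pair (red) lies at 0.0130 and 0.00231, LXLOC_020843 at 0.113, LXLOC_020837 at 0.464, LXLOC_020850 at 0.761, LXLOC_020848 at 0.88, LXLOC_020849 at 20.1 and LXLOC_020847 at 22.9.

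Features with the most similar levels were found by Euclidean distance of log2(FPKM + 0.5) over the 4 libraries, among 8556 other features tested. The nearest to LXLOC_020842 were LXLOC_072128 (distance 0.102) and LXLOC_006354 (0.148). LXLOC_072128 is 506 bases long. Its day 3 FPKM was 0.91 and 0.74 and its cultured FPKM 0 and 0.05, from 20, 16, 0 and 1 counts. The nearest to LXLOC_020844 were LXLOC_010745 (0.286) and LXLOC_049062 (0.397). LXLOC_010745 is 562 bases long, with a day 3 FPKM of 1.9 and 1.39 from 47 and 34 counts, and was unlisted after culture. LXLOC_049062 was at FPKM 1.44 and 1.34 in the day 3 libraries, at 0.07 in cultured library 1 and unlisted in cultured library 2. These values came from 25, 21, 2 and 0 counts. Unlike the pair, it has 2 transcripts, with a length given as 411.8 bases.

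By that measure the members of the pair are not each other's nearest features. Their distance was 1.08, and their mean day 3 FPKM values were 0.83 and 1.75. LXLOC_020844 ranked 378 in distance from LXLOC_020842, and LXLOC_020842 ranked 79 in distance from LXLOC_020844. The measure follows the level of a feature as well as its change, and no function is inferred from it.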

How the data were processed

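Stranded TruSeq libraries were made from ovary total RNA and sequenced, per the labels' protocols. HISAT, Cufflinks and mm9 are named, with neither versions nor roles, per the submitters' processing notes. The tool behind the counts was not given in the sources used here. For each library the authors deposited 1 table with an estimated count, FPKM and length for each feature, per the file headers. The FPKM values are the authors' normalization to length and library total. Unlisted features were set to 0 counts.

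Estimated counts were rounded and tested with edgeR 4.0.16 (R 4.3.3), TMM factors and the two-sided quasi-likelihood F test, over the 8557 features that reached FPKM 0.5 in at least 2 libraries. Calls were made below 0.05 after Benjamini-Hochberg adjustment. The SE was taken as the absolute log2 fold change over the root of F. Library totals behind FPKM, from 41410677 to 49357745, came from a straight line of count over FPKM on length. Intervals are exact (scipy 1.17.1). The members, lists and bounds were chosen with earlier results of these data known. Named were the pair, its numbered neighbours and the 2 nearest features to each member.

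The test was checked on simulated counts for 8557 features with a dispersion of 0.1. For this comparison it recovered 4 of 67 changes of 2-fold, 49 of 73 of 4-fold and 58 of 60 of 8-fold. Of 8357 unchanged features it called 4. The changed features were drawn only from those above a minimum mean count, so recovery in sparser features was not tested. Alternatives were DESeq2 1.42.0, other scalings, filters and pseudocounts (limma 3.58.1), a replicate block and each library left out.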

Additional observations from a re-analysis of the deposited data

How the results depend on the processing

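Both members of the pair stayed lower after culture in every alternative that could be run on them. All alternatives reuse the libraries that chose the pair, so this direction was to be had from the choice and is no separate result. LXLOC_020842 had no value with the filter at FPKM 1. The fitted log2 fold change depended on the pseudocount, which understates the change of low features. In limma it was -1.37 (LXLOC_020842) and -2.16 (LXLOC_020844) with a pseudocount of 0.5, -3.02 and -4.14 with 0.1, and -0.85 and -1.45 with 1. Leaving out 1 library gave -5.34 to -7.33 for LXLOC_020842 and -7.91 to -10.51 for LXLOC_020844. The last value comes from cultured library 2 alone, where the count is 0, and depends on edgeR's prior count.

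Over all features, 1229 changed (502 higher, 727 lower). The number was 700 (424 and 276) with the library totals behind FPKM, 2540 (1133 and 1407) with no filter and 744 (309 and 435) at FPKM 1. Limma on FPKM gave 741 (403 and 338) at a pseudocount of 0.1, 823 (443 and 380) at 0.5 and 747 (391 and 356) at 1. More features were higher than lower with the library totals and in all 3 limma fits, unlike with TMM scaling. The filters changed the number of features tested. For the pseudocounts the cause was not tested. Leaving out 1 library gave 586 to 1260, where the remaining library of a group was taken to vary as the other group did. A replicate block gave 1204 changed features, and log2 fold changes of -6.16 and -8.44 for the pair. The labels do not say that replicate numbers pair libraries, and the deviations of same-numbered libraries from their group means gave r = -0.143 across features.

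Among the numbered neighbours 1 changed feature was called, 3 with no filter, and 1 to 2 with no filter and 1 library left out, alternatives added after the data were seen. Leaving out 1 library with the filter gave 1 each time. Depth limits the cultured level of the pair, which rests on 7 and 1 counts.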

Other observations

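Some likeness in change was seen between LXLOC features with close numbers outside the window of LXLOC_020835 to LXLOC_020850. For 71 pairs of tested features whose numbers differ by 2, Pearson's r of the log2 fold changes was 0.415, and for 83 pairs whose numbers differ by 1 it was 0.467. These are descriptions across features that share the same 4 libraries, with no test, and whether such pairs share reads or a locus was not tested. Both members of a pair were called lower in 4 of the 71 and in 7 of the 83. Exactly 1 member was called lower, with the other not called, in 16 and 15. Of all tested LXLOC features 24.7% were called lower, a share of single features rather than of pairs. No share was computed for pairs with distant numbers, so whether close pairs were both lower more often was not tested. Outside the window, 46 features called lower had a tested feature within 2 numbers, and for 17 of them (37.0%) at least 1 such neighbour was also called lower. Of 189 features not called lower that had a tested feature within 2 numbers, 31 (16.4%) had a neighbour called lower. The features of a pair count each other, so these shares are not independent, and their difference was not tested.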
